A study of Mus musculus with 8 samples.

Results

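The medium spiny neuron is the projection neuron of the striatum, and the genes followed here are those by which it is usually recognized. The list held 47 gene symbols, chosen by function and cell type with earlier results of these data known. Of the 47, 43 were rows of the deposited table of 15039 genes. *Drd3*, *Ido1*, *Sh3rf2* and *Ptpn7* were not in the table and were not analysed here. RNA came from the dissected prefrontal cortex (PFC) of wild-type male C57BL/6NCrljOri mice that had received a bilateral injection of an adeno-associated virus (AAV) at 6 weeks of age. The virus was AAV2/1-hsyn-RNF146-eGFP in 4 libraries (RNF146) and AAV2/1-hsyn-eGFP in 4 libraries (eGFP), and tissue was taken 4 weeks later. The human synapsin promoter (hsyn) directs expression to neurons, so both groups carried eGFP in neurons of the injected region, and only the RNF146 group carried additional mouse Rnf146, a ubiquitin ligase. The labels do not say whether each library came from a separate mouse, so the p-values are not read as measuring the spread between mice. They rest on the spread of the differences between RNF146 and eGFP libraries of the same replicate number.

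Medium spiny neurons are GABAergic and receive dopamine from the midbrain. Those of the direct pathway carry the dopamine receptor Drd1 and make the tachykinin precursor Tac1 and prodynorphin (Pdyn). Those of the indirect pathway carry the dopamine receptor Drd2 and the adenosine receptor Adora2a and make proenkephalin (Penk). Drd1 and Adora2a act through the olfactory-type G protein (Gnal, Gng7) and adenylyl cyclase 5 (Adcy5). In both classes, phosphodiesterases such as Pde10a degrade the cyclic nucleotides, and protein kinase A phosphorylates DARPP-32 (Ppp1r1b), which then inhibits protein phosphatase 1. The striatum lies below the frontal cortex. Several of the genes, among them *Bcl11b*, *Meis2*, *Arpp21*, *Hpca* and *Ngef*, are also known from cortical neurons. In bulk tissue, a different number of cells of a type and a different amount of RNA per cell cannot be told apart.

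The deposited values are on a log2 scale, and for every gene the eGFP and the RNF146 value of the same replicate number add up to the same sum in all 4 pairs. Each gene therefore carries 1 mean and 4 pair differences (RNF146 minus eGFP), and a high RNF146 library cannot be told from a low eGFP library within a pair. Levels are not corrected for gene length, so the order of genes by level is not read as an order of expression. The vector target *Rnf146* was higher in RNF146 in all 4 pairs, by 2.51 to 2.82. Over all genes the median difference was 0.00021, 0.0022, 0.0037 and -0.0020 in pairs 1 to 4. The read depth of the libraries is unknown.

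The 250 bases before the canonical start site are shown for 6 members on which the results turn, to show the sequence before genes of both pathways and before called genes. *Drd1* and *Tac1* mark the direct pathway, *Drd2* and *Adora2a* the indirect pathway, and *Sp9* and *Tmem158* are among the 4 members that passed the test. Sequences are written 5′ to 3′ on the gene's strand from GRCm39, and capitals mark the MEIS core TGACAG and the GC box GGGCGG on either strand. Motifs searched were these 2, the core TGACG of the cAMP response element and its full form TGACGTCA, which contains the core.
Drd1, chr13:54209761-54210010, minus strand: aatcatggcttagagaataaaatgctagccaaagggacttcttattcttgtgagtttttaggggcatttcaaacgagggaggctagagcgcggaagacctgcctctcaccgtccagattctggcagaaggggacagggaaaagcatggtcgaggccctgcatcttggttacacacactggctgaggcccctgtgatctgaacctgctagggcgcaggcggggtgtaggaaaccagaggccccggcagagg
Tac1, chr6:7553870-7554119, plus strand: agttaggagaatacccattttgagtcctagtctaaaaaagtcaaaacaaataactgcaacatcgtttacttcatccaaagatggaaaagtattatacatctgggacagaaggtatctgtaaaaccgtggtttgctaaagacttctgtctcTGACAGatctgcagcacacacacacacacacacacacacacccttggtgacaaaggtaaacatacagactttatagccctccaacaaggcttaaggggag
Drd2, chr9:49251404-49251653, plus strand: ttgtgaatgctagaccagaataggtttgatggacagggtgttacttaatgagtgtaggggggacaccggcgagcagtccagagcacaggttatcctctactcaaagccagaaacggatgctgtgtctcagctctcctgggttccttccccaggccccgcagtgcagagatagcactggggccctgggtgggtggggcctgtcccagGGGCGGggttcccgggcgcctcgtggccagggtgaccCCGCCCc
Adora2a, chr10:75152310-75152559, plus strand: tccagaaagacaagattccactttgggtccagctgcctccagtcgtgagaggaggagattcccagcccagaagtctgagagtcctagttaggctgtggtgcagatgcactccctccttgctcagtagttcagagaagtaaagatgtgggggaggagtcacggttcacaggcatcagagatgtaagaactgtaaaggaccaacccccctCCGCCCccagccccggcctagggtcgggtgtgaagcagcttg
Sp9, chr2:73102019-73102268, plus strand: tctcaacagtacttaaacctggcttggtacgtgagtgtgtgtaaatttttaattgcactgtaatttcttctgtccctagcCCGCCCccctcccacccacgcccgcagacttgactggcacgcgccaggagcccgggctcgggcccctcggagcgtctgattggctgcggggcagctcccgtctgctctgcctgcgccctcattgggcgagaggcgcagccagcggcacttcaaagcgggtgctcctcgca
Tmem158, chr9:123089830-123090079, minus strand: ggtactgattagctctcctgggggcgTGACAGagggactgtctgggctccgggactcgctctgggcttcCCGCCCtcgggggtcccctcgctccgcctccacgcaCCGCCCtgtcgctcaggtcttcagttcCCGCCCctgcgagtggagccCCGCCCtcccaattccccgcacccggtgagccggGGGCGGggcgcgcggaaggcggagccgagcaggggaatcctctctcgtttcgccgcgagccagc

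In the same window, TGACAG was found before 10 of the 43 members (23.3%) and before 14.6% of 21738 protein-coding genes. GGGCGG preceded 20 of the 43 members (46.5%), against 36.3% of all genes. TGACG was found before 6 members (14.0%), against 18.0% of all genes, and TGACGTCA before *Gpr6*, *Pde7b* and *Dlx6*, against 1.70% of all genes. The windows of *Drd1* and *Tac1* held no GC box, and those of *Drd2* and *Adora2a* held 2 and 1. This did not divide the pathways. Of the other indirect pathway genes, *Penk*, *Gpr6*, *Gpr52* and *Gprin3* had none and *Sp9* had 1. Of the other direct pathway genes, *Pdyn* and *Ebf1* had none and *Slc35d3* had 1. A match of letters is a description of the window and not a binding site.

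Medium spiny neuron genes were higher in the RNF146 than in the eGFP library of pair 2, to a lesser degree of pairs 3 and 4, and as a group not of pair 1. The median difference of the 43 members was -0.025 in pair 1, 0.73 in pair 2, 0.30 in pair 3 and 0.20 in pair 4. In pair 2, 41 of 43 members were higher, as were 40 in pair 3 and 38 in pair 4, whereas 18 were higher in pair 1. Among all genes, 50.7%, 51.1%, 49.2% and 50.1% were higher in pairs 2, 3, 4 and 1. The mean difference over the 4 pairs was above 0 for 41 members (50.5% of all genes), with *Oprd1* and *Eya1* as the exceptions, and its median was 0.34. The pair medians had an SD of 0.32 (n = 4 pairs), about as large as that median.

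**Figure D1:**
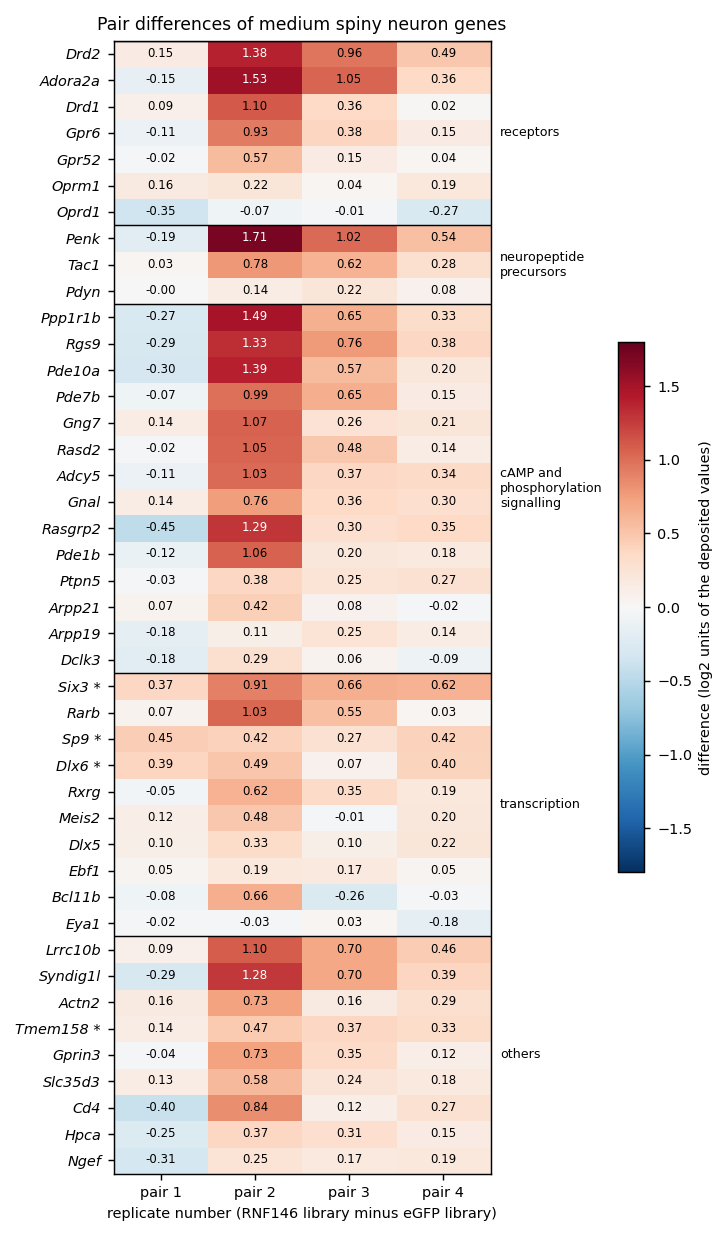
Difference between the RNF146 and the eGFP library of each pair (colour and number, log2 units of the deposited values) for the 43 medium spiny neuron genes (rows, by role), with an asterisk at the 4 genes called by limma at adjusted p-values up to 0.1. The column of pair 2 is the darkest, with 15 genes at 1 or more, and the column of pair 1 holds no gene at 0.5 or more.

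Many members shared an order of the pairs. The difference was largest in pair 2 for 38 of 43 members, against 23.8% of all genes, and smallest in pair 1 for 33, against 29.0% of all genes. Pair 3 was the largest for *Oprd1*, *Pdyn*, *Arpp19* and *Eya1* (26.6% of all genes) and pair 1 for *Sp9* (28.5% of all genes). Pairs 3 and 4 were the smallest for 5 members each, against 24.6% and 22.5% of all genes. For 24 members the order was pair 2, pair 3, pair 4 and pair 1, an order shown by 4.73% of all genes. A difference of 0.5 or more was reached by 0, 27, 12 and 2 of the 43 members in pairs 1 to 4, against 0.492%, 1.13%, 0.778% and 0.519% of all genes. A difference of 1 or more in pair 2 was found in 24 genes of the whole table (0.160%), and 15 of these 24 were members. They were *Drd1*, *Drd2*, *Adora2a*, *Penk*, *Adcy5*, *Gng7*, *Rgs9*, *Pde10a*, *Pde1b*, *Ppp1r1b*, *Rasd2*, *Rasgrp2*, *Rarb*, *Syndig1l* and *Lrrc10b*. In pair 3, *Adora2a* and *Penk* were 2 of 9 such genes (0.0598%), and in pairs 1 and 4 no member was among the 6 (0.0399%) and 5 (0.0332%) such genes. Of the 50 genes with the largest difference in pair 2, 19 were members, compared with 7 in pair 3, 1 in pair 4 and 0 in pair 1. Across the 43 members, Spearman's rho between the differences of pairs 2 and 3 was 0.75, and between those of pairs 2 and 1 it was -0.19. Over the 15039 genes these values were 0.19 and 0.19. Genes are not independent replicates, and members share the compression of low values on this scale.

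Tested across all genes with limma and the replicate number as a block, 4 of the 43 members (9.30%) had an adjusted p of 0.1 or less, all of them higher in RNF146. Over all genes, 1.25% were called in either direction and 0.818% as higher. The called members were *Six3*, *Sp9* and *Dlx6*, which encode transcription factors of the developing ventral forebrain, and *Tmem158*, which encodes a membrane protein. At an unadjusted limma p under 0.05, 29 members were higher and 1, *Oprd1*, was lower, against 6.45% and 5.98% of all genes. Limma shrinks variances towards those of other genes. The 29 include members whose mean did not exceed the spread between pairs, such as *Penk* (0.77 ± 0.80, SD, n = 4 pairs). In 16 members the RNF146 library was higher in all 4 pairs, so that the groups did not overlap, against 10.4% of all genes, and *Oprd1* was lower in all 4 (10.2% of all genes). Without the block, which takes the centred values for 8 independent libraries, 26 members were called, against 21.5% of all genes, and 25 of them were higher, against 11.0% of all genes. With array weights 8 members were called, the 4 above with *Drd2*, *Tac1*, *Gnal* and *Lrrc10b*, against 2.36% of all genes. These weights were lowest for the libraries of pair 1, at 0.672, and highest for those of pair 4, at 1.44.

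The receptors for dopamine and adenosine had their largest differences in pair 2, and *Drd2* and *Adora2a* also differed by 0.96 and 1.05 in pair 3. *Drd2* had values of 9.64, 9.02, 9.23 and 9.47 in eGFP libraries 1 to 4 and of 9.79, 10.40, 10.19 and 9.96 in RNF146 libraries 1 to 4. Every RNF146 value lay above every eGFP value, with pair 1 closest together. The difference of *Drd2* averaged 0.74 ± 0.54 (SD, n = 4 pairs), for which limma gave an adjusted p of 0.119. For *Adora2a* the values were 9.62, 8.78, 9.02 and 9.37 in eGFP and 9.48, 10.31, 10.07 and 9.73 in RNF146. Here the groups overlapped, because the eGFP library of pair 1 was above its RNF146 partner. The difference was 0.70 ± 0.74 with an adjusted p of 0.255, smaller than the spread between the pairs. *Drd1* read 10.07, 9.56, 9.93 and 10.10 in eGFP and 10.16, 10.66, 10.29 and 10.12 in RNF146, so that its difference of 1.10 in pair 2 stood against 0.02 to 0.36 in the other pairs. Its mean was 0.39 ± 0.50 with an adjusted p of 0.348.

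The orphan receptors of the striatum had the order pair 2, pair 3, pair 4 and pair 1. *Gpr6* differed by -0.11, 0.93, 0.38 and 0.15 in pairs 1 to 4, and *Gpr52* by -0.02, 0.57, 0.15 and 0.04. The opioid receptors, which respond to the enkephalins and related peptides, did not. The µ-opioid receptor gene *Oprm1* differed by 0.16, 0.22, 0.04 and 0.19, and the δ-opioid receptor gene *Oprd1* by -0.35, -0.07, -0.01 and -0.27. Neither was called, with adjusted p-values of 0.223 and 0.317. Of the 7 receptors measured, 0 were called, against 1.25% of all genes. The median difference of the 7 was -0.02, 0.93, 0.36 and 0.15 in pairs 1 to 4.

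Among the neuropeptide precursors, *Penk* had the largest difference of all members in pair 2 on the deposited scale, which compresses low values. Its values were 11.23, 10.28, 10.63 and 10.87 in eGFP and 11.04, 11.99, 11.65 and 11.41 in RNF146. Pairs 2, 3 and 4 differed by 1.71, 1.02 and 0.54, and pair 1 by -0.19. The mean was 0.77 ± 0.80 (SD, n = 4 pairs), for which limma gave an adjusted p of 0.244, so it did not exceed the spread between the pairs. *Tac1* read 9.74, 9.36, 9.44 and 9.61 in eGFP and 9.77, 10.14, 10.06 and 9.89 in RNF146. All 4 RNF146 values were above the eGFP values, pair 1 by only 0.03, and the mean of 0.43 ± 0.34 had an adjusted p of 0.161. *Pdyn* lay between 9.93 and 10.04 in eGFP and between 10.03 and 10.14 in RNF146. It differed by -0.0024, 0.14, 0.22 and 0.082 in pairs 1 to 4, so its largest difference was in pair 3. Its adjusted p was 0.443.

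**Figure D2:**
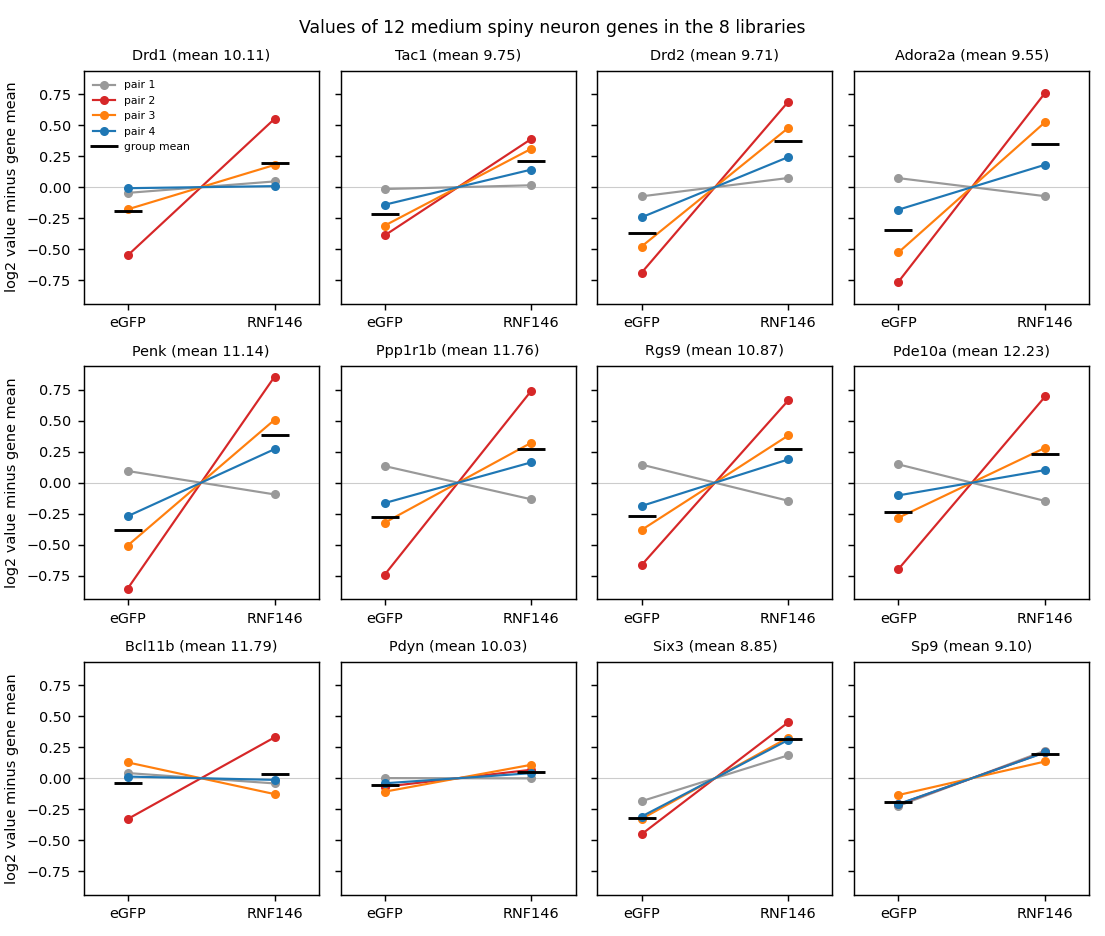
Log2 value minus the gene's mean (vertical axis) in the eGFP and RNF146 libraries for 12 members, with a line for each pair of libraries and black bars at the group means of 4 libraries. Lines mirror each other around 0 because values were centred within pairs. Pair 2 is steepest in *Penk*, *Adora2a*, *Ppp1r1b*, *Pde10a*, *Drd2*, *Rgs9* and *Drd1*, pair 1 slopes downward in 5 of these 7, and the 4 lines of *Sp9* nearly coincide.

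The components of dopamine and cAMP signalling were higher on average in 14 of 14 genes, against 50.5% of all genes. Their median difference was -0.11, 1.04, 0.33 and 0.21 in pairs 1 to 4. In all 4 pairs, 2 of these genes were higher, against 10.4% of all genes. Of the 14, 0 were called, against 1.25% of all genes. *Ppp1r1b* had values of 11.89, 11.01, 11.44 and 11.59 in eGFP and of 11.62, 12.50, 12.08 and 11.92 in RNF146. Its difference was -0.27 in pair 1 and 1.49, 0.65 and 0.33 in the other pairs. *Rgs9*, a regulator that shortens G protein signalling, differed by -0.29, 1.33, 0.76 and 0.38. *Pde10a*, a phosphodiesterase that degrades cAMP and cGMP, differed by -0.30, 1.39, 0.57 and 0.20. The means of these 3 genes were 0.55 ± 0.73, 0.54 ± 0.68 and 0.47 ± 0.71, with adjusted p-values of 0.364, 0.335 and 0.432 from limma. The groups overlapped in each of them because of pair 1.

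Of the G protein and cyclase genes, *Gnal* and *Gng7* were higher in RNF146 in all 4 pairs. *Gnal* differed by 0.14, 0.76, 0.36 and 0.30, a mean of 0.39 ± 0.26 with an adjusted p of 0.122. *Gng7* differed by 1.07 in pair 2 and by 0.14 to 0.26 in the others. *Adcy5* differed by -0.11 in pair 1 and by 1.03, 0.37 and 0.34 in pairs 2 to 4. The phosphodiesterases *Pde1b* and *Pde7b* reached 1.06 and 0.99 in pair 2, with -0.12 and -0.07 in pair 1. *Rasd2* and *Rasgrp2*, which encode a small GTPase of the striatum and an activator of Rap GTPases, reached 1.05 and 1.29 in pair 2. On the deposited scale, *Rasgrp2* had the lowest difference of all members in pair 1, at -0.45.

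Smaller differences were found for the remaining signalling genes. *Ptpn5*, which encodes the striatum-enriched phosphatase STEP, differed by -0.03, 0.38, 0.25 and 0.27. *Arpp21* and *Arpp19*, which encode cAMP-regulated phosphoproteins, had mean differences of 0.14 and 0.08, and the kinase gene *Dclk3* one of 0.02. The adjusted p-values of these 4 genes lay between 0.235 and 0.951.

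Transcription factors held 3 of the 4 called members, of which *Six3* had the order pair 2, pair 3, pair 4 and pair 1 and *Sp9* and *Dlx6* did not. *Six3* had values of 8.67, 8.40, 8.53 and 8.55 in eGFP and of 9.04, 9.31, 9.18 and 9.16 in RNF146. The groups did not overlap, and pair 1 was higher by 0.37. The mean difference of *Six3* was 0.64 ± 0.22 (SD, n = 4 pairs), for which limma gave an adjusted p of 0.0161. *Sp9*, which is required for indirect pathway neurons to form, was at 8.88, 8.89, 8.97 and 8.89 in eGFP and at 9.33, 9.31, 9.24 and 9.31 in RNF146. Its difference was 0.45, 0.42, 0.27 and 0.42 in the 4 pairs, a mean of 0.39 ± 0.08 with an adjusted p of 0.0183. *Dlx6*, a homeobox gene of GABAergic neurons, read 8.83, 8.77, 8.99 and 8.82 in eGFP and 9.22, 9.27, 9.06 and 9.22 in RNF146. The mean difference was 0.34 ± 0.18 with an adjusted p of 0.0923, and pair 3 contributed 0.07. For *Sp9* and *Dlx6* the smallest difference was in pair 3 and not in pair 1.

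Leaving out a pair ended some of these calls, and all of them ended without pair 4, when 14 genes of the whole table (0.0931%) were called. *Six3* had adjusted p-values of 0.00984, 0.0595, 0.0551 and 0.138 without pairs 1 to 4, and *Sp9* of 0.0310, 0.102, 0.0249 and 0.150. *Dlx6* was called only without pair 3, and *Tmem158* only without pair 1, with adjusted p-values of 0.0294 and 0.0233. The mean differences of the 4 genes kept their sign in each case, as they must when all 4 pairs are higher in RNF146.

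The other transcription factor genes had smaller or less even differences. *Rarb* and *Rxrg*, which encode retinoid receptors, differed by 0.07, 1.03, 0.55 and 0.03 and by -0.05, 0.62, 0.35 and 0.19. *Bcl11b*, which encodes the factor CTIP2 of medium spiny and deep-layer cortical neurons, had values of 11.83, 11.46, 11.92 and 11.81 in eGFP and of 11.75, 12.12, 11.67 and 11.78 in RNF146. It was higher in RNF146 only in pair 2, by 0.66, and its mean of 0.07 ± 0.40 had an adjusted p of 0.870. *Meis2* differed by 0.12, 0.48, -0.01 and 0.20, and *Dlx5* by 0.10, 0.33, 0.10 and 0.22. *Ebf1*, which acts in direct pathway neurons, had a mean difference of 0.11 ± 0.08, and *Eya1* one of -0.05 ± 0.09. None of these 7 was called, with adjusted p-values from 0.208 to 0.870.

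Of the 9 measured members with other roles, only *Tmem158* was called (1.25% of all genes). Its values were 10.19, 10.02, 10.07 and 10.09 in eGFP and 10.33, 10.49, 10.44 and 10.42 in RNF146, without overlap. Its difference was 0.33 ± 0.14 (SD, n = 4 pairs), for which limma gave an adjusted p of 0.0675. *Lrrc10b* and *Syndig1l*, both known from striatal expression, differed by 0.09, 1.10, 0.70 and 0.46 and by -0.29, 1.28, 0.70 and 0.39. The adjusted p was 0.121 for *Lrrc10b* and 0.340 for *Syndig1l*. *Actn2*, an actin-binding α-actinin, *Gprin3* and *Slc35d3* had mean differences of 0.34, 0.29 and 0.28, each largest in pair 2. *Cd4*, better known from T cells, ran from -0.40 in pair 1 to 0.84 in pair 2. *Hpca*, which encodes the calcium sensor hippocalcin, and *Ngef*, a guanine nucleotide exchange factor, differed by -0.25 and -0.31 in pair 1 and had mean differences of 0.14 and 0.07.

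The medians of the direct and the indirect pathway genes were both highest in pair 2 and lowest in pair 1, which did not hold for every gene. *Drd1* and *Ebf1* were smallest in pair 4, *Pdyn* was largest in pair 3 and *Sp9* in pair 1. The 7 indirect pathway genes (*Drd2*, *Adora2a*, *Penk*, *Gpr6*, *Gpr52*, *Sp9* and *Gprin3*) had median differences of -0.04, 0.93, 0.38 and 0.36 in pairs 1 to 4. The 5 direct pathway genes (*Drd1*, *Tac1*, *Pdyn*, *Slc35d3* and *Ebf1*) had medians of 0.05, 0.58, 0.24 and 0.08. The difference between the classes was not tested.

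**Figure D3:**
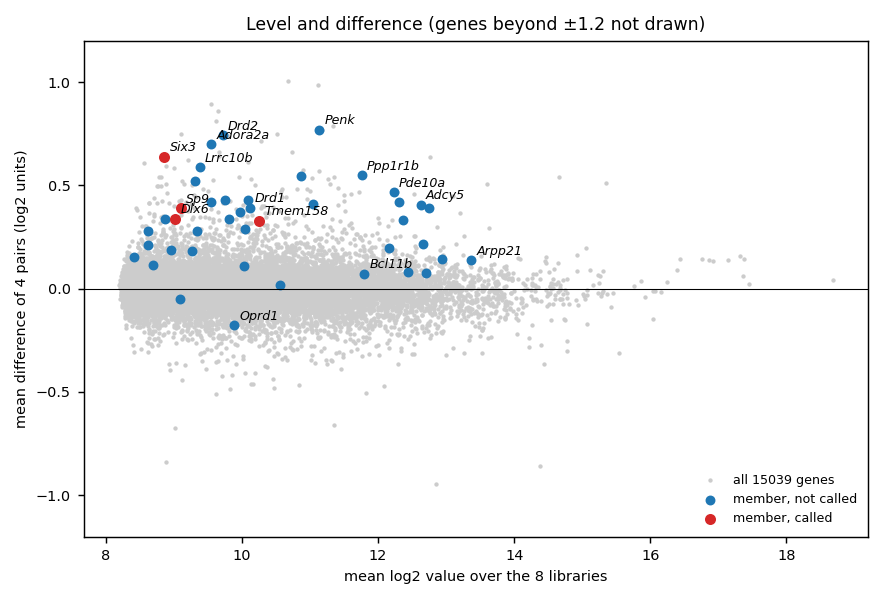
Mean difference of the 4 pairs (vertical axis, RNF146 minus eGFP, log2 units) against the mean log2 value over 8 libraries for all 15039 genes (grey) and the 43 members (blue, not called, and red, called). Members lie mostly above 0 over a range of mean values from 8.41 to 13.4, and the called members *Six3*, *Sp9* and *Dlx6* have mean values of 8.85, 9.10 and 9.02. *Rnf146* lies above the drawn range.

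The scale of the deposited values understates the change of genes with low values. On a variance-stabilizing curve, a step of 1 in the log2 count moves the value by 0.329 at a normalized count of 100 and by 0.961 at 10000. Transformed back along this curve, the fold difference of *Penk* was 0.854, 4.23, 2.34 and 1.57 in pairs 1 to 4, and that of *Adora2a* was 0.837, 7.11, 3.72 and 1.56. *Drd2* came to 1.18, 5.13, 3.04 and 1.75, and *Six3*, at a mean of about 143 normalized counts, to 1.96, 5.53, 3.36 and 3.12. For *Ppp1r1b*, at a mean of about 3065 normalized counts, the folds were 0.811, 3.22, 1.66 and 1.29, and for *Adcy5* 0.924, 2.14, 1.31 and 1.29. The order of the pairs cannot change, because the curve rises throughout and every pair of a gene is centred on the same mean. The 4 calls were the same as on the deposited scale.

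With pair 1 left out, 18 of the 43 members were called, against 2.80% of all genes. *Penk*, *Drd2*, *Adora2a*, *Tac1*, *Rgs9* and *Ppp1r1b* were among them, with adjusted p-values of 0.0373, 0.0282, 0.0512, 0.0344, 0.0497 and 0.0881. Their mean differences over pairs 2 to 4 were 1.09, 0.94, 0.98, 0.56, 0.82 and 0.82. The defining markers *Drd1*, *Pde10a*, *Pdyn* and *Bcl11b* were not called, with adjusted p-values of 0.253, 0.133, 0.291 and 0.778 from limma. Pair 1 held the smallest difference of 33 of the 43 members, so leaving it out raises their means by construction. With pair 2 left out, *Six3* was the 1 member called, against 0.279% of all genes, and the median difference of the members fell from 0.34 to 0.16. Without pair 3 or pair 4, 3 and 0 members were called, against 1.12% and 0.0931% of all genes.

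**Figure D4:**
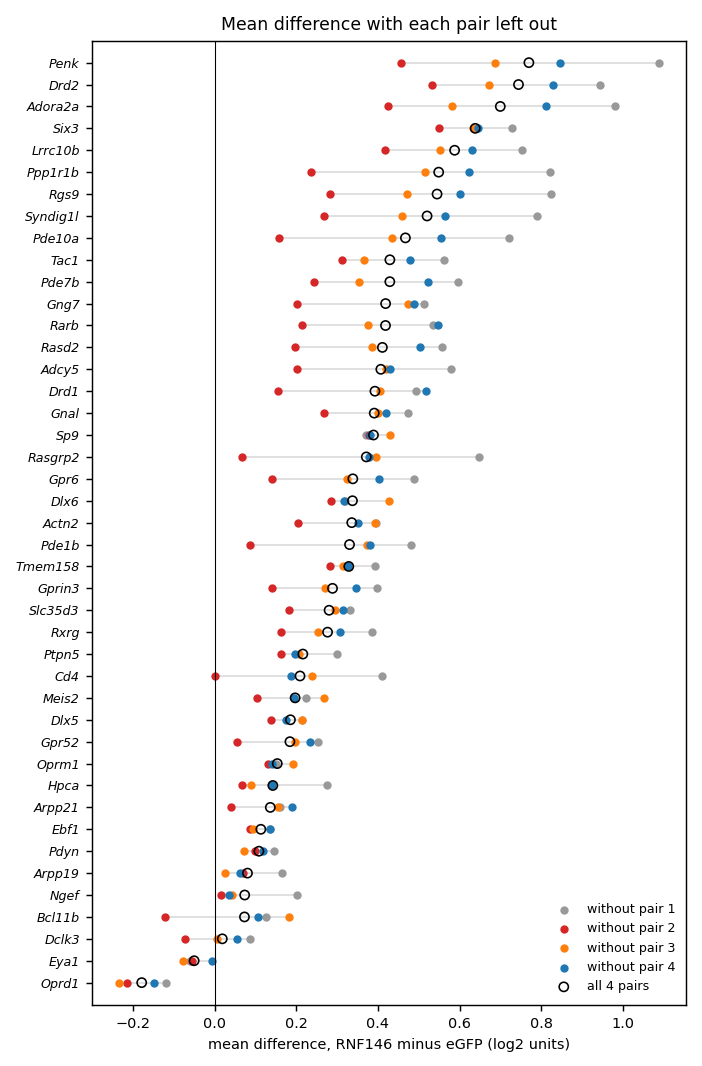
Mean difference (horizontal axis, RNF146 minus eGFP, log2 units) of each of the 43 members over all 4 pairs (open circles) and with 1 pair left out (coloured points). Red points, without pair 2, lie farthest to the left for most genes, and grey points, without pair 1, farthest to the right. *Bcl11b* and *Dclk3* change sign without pair 2.

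Other genes of medium spiny neurons, a second list of 20 that is partly shared with other GABAergic neurons, had median differences of 0.18, 0.51, 0.24 and 0.14 in pairs 1 to 4. Of the 20, 7 were called, all as higher, against 0.818% of all genes. These were *Gad1* and *Gad2*, which make GABA, the vesicular GABA transporter *Slc32a1*, the transcription factors *Isl1*, *Dlx1* and *Zfp521*, and the channel subunit *Kcnip2*, which had the smallest mean difference of the 7, at 0.24. *Gad2* differed by 0.52, 0.80, 0.57 and 0.65, a mean of 0.64 ± 0.12 (SD, n = 4 pairs), for which limma gave an adjusted p of 0.00501. The sodium channel subunit *Scn4b* was not called, and differed by -0.49, 1.83, 1.28 and 0.43. Its mean difference of 0.77 ± 1.01 was the largest of this list. The 21 genes of protein kinase A and its phosphatases and cyclases, which act downstream of the receptors in many neurons, had medians of 0.05, 0.01, 0.00 and -0.01. None of the 21 was called, against 1.25% of all genes. The largest mean differences were 0.19 for *Prkar2b* and -0.15 for *Adcy1*, with adjusted p-values of 0.156 and 0.436 from limma. In pair 2, where *Ppp1r1b* differed by 1.49, the catalytic subunit genes *Prkaca* and *Prkacb* differed by 0.02 and 0.05.

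**Figure D5:**
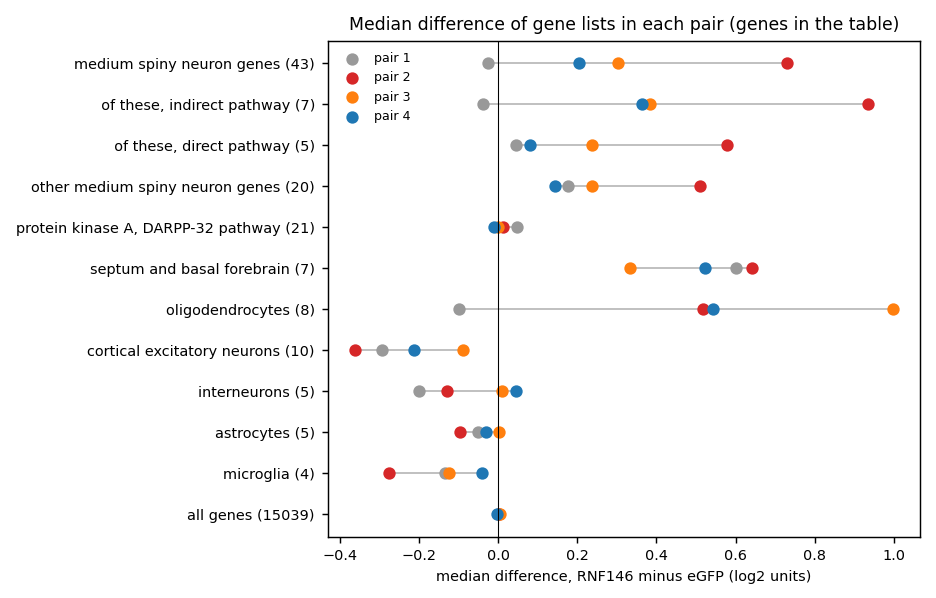
Median difference (horizontal axis, RNF146 minus eGFP, log2 units) of each gene list in pairs 1 to 4 (coloured points), with the number of genes in the table in parentheses. Pair 2 is highest in the lists of medium spiny neurons and, at 0.64, in septum and basal forebrain, where pair 1 is at 0.60. Pair 3 is highest in oligodendrocytes.

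Markers of other cells moved with these genes in part. The 7 of 8 septal and basal forebrain genes in the table had medians of 0.60, 0.64, 0.33 and 0.52 in pairs 1 to 4. Of these, 5 were called as higher (0.818% of all genes), *Zic1*, *Zic2*, *Zic4*, *Trpc4* and *Dlk1*. The largest mean differences were 0.99 for *Zic1* and 0.90 for *Dlk1*. The mean of their values was 9.58 to 9.77 in eGFP libraries and 10.06 to 10.25 in RNF146 libraries. All 8 oligodendrocyte markers were in the table, with medians of -0.10, 0.52, 1.00 and 0.54. Pair 1 was lowest as for the members, and pair 3, not pair 2, was highest. None of the 8 was called (1.25% of all genes), and their highest difference in pair 1 was -0.029. Their mean value was 12.24 to 12.80 in eGFP and 12.66 to 13.21 in RNF146. The 10 cortical excitatory neuron markers had medians of -0.29, -0.36, -0.09 and -0.21, with *Slc17a7* and *Neurod2* called as lower (0.432% of all genes). The mean value of the 10 was 11.20 to 11.32 in eGFP and 10.97 to 11.10 in RNF146. For the 43 members the mean value was 10.09 to 10.48 in eGFP and 10.45 to 10.84 in RNF146, and the eGFP library of pair 1 and its RNF146 partner were nearly equal at 10.48 and 10.45.

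Of the remaining lists, 5 of 6 interneuron markers had medians from -0.20 to 0.05 in the 4 pairs. The 5 astrocyte markers ranged from -0.10 to 0.00 and the 4 microglia markers from -0.28 to -0.04. None of these 14 genes was called, against 1.25% of all genes. Their lists had the largest mean differences at *Vip* (-0.23), *Gfap* (-0.13) and *Csf1r* (-0.35). Among striatal cholinergic neuron markers, *Slc5a7* was the only one of 5 in the table. It was called as higher at 0.51 ± 0.27 with an adjusted p of 0.0647 from limma. Its differences were 0.21, 0.83, 0.37 and 0.62 in pairs 1 to 4, so pair 2 was highest and pair 1 lowest, as for the members. The ependymal markers *Foxj1* and *Rarres2* were in the table (2 of 5) and were both called as higher (0.818% of all genes). The 3 of 5 olfactory bulb markers in the table had medians from -0.27 to 0.13 with none called. The part of these other cell types in the differences of the medium spiny neuron genes was not tested.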

How the data were processed

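RNA sequencing of 8 PFC libraries, 4 RNF146 and 4 eGFP, was analysed. The authors trimmed reads with Cutadapt, quantified transcripts with Salmon 1.9.0 against GENCODE vM30 (GRCm39) and deposited 1 table of gene values. DESeq2 is named in the submitters' processing notes without a role. The table is called normalized counts, but the deposited values are on a log2 scale, from 7.86 to 18.8, and the authors had centred them within pairs of the same replicate number (largest spread of the pair sums 1.4e-13). The normalization behind them is not given in the sources used here. Counts were not analysed here, so no count test was run and depth is unknown.

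Each difference was fitted with limma 3.58.1 in R 4.3.3 (trended prior variance) over all 15039 genes, with replicate numbers as blocks and p-values adjusted by the Benjamini-Hochberg method, and 0.1 was the highest adjusted p for a call. Pairs follow the labels' replicate numbers and the centring, which fixes the correlation of paired deviations at -1. For 4 pairs, 0.125 is the smallest two-sided p of an exact permutation of signs. In limma, variances are shrunk towards those of other genes, so a member with a wide spread between pairs gets a smaller standard error than its SD gives. The fit was tested on simulated data with pair differences drawn independently for each gene, so genes that move together by pair were not covered.

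A variance-stabilizing curve was fitted to mean counts that the study lists for 294 genes (median absolute residual 0.0073, largest 0.538) and was inverted with an offset of 0.5. Promoter windows and positions came from GENCODE vM39 on GRCm39, the build of the files. The members and lists were chosen with earlier results of these data known. Given with values in every pair are the called members, the 10 with the largest mean difference and 10 defining markers, and for other lists the rule named the called genes and the 2 with the largest difference, of which the lists without calls are given mostly by their medians. Further members given with values were chosen so that each is accounted for. Alternatives were no block, each pair left out, quantile normalization, median centring, the inverted scale, a filter below the first quartile of mean value, array weights, an untrended prior and an adjusted p of 0.05. Python 3.11.15 with numpy 2.4.6, pandas 2.3.3, scipy 1.17.1 and matplotlib 3.10.9 was used for the other steps.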

Additional observations from a re-analysis of the deposited data

Results flagged for a closer look

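Of the 43 members, 3 had a pair that stood apart from the other pairs, by a gap beyond Dixon's 95% limit for 4 values. Chance alone gives about 1 such gene in 20, and 5.39% of all 15039 genes met the same limit. *Gng7*, a G protein γ subunit of the striatum, was high in pair 2, at a difference of 1.07 against 0.14 to 0.26 in the other pairs. *Sp9* was low in pair 3, at 0.27 against 0.42 to 0.45. *Ngef* was low in pair 1, at -0.31 against 0.17 to 0.25.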

How the results depend on the processing

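The number of called genes changed most with the replicate block and with the pairs used. Without the block, 3226 genes and 26 members were called, in place of 188 and 4. With array weights, 355 genes and 8 members were called, and at an adjusted p of 0.05, 80 genes and 2 members (*Six3* and *Sp9*). Leaving out 1 pair at a time, the count ran from 14 to 421 genes and from 0 to 18 members. Under quantile normalization, median centring, the inverted scale, the untrended prior and the filter, the count of members stayed at 3 or 4, and the filter removed *Six3* from the genes tested. The median difference of the members ran from 0.16 to 0.40 with a pair left out. On the inverted scale the median of the transcription factor genes was 0.49, in place of 0.24 on the deposited scale, which by construction compresses low values. *Bcl11b* and *Dclk3* turned to -0.12 and -0.072 without pair 2, having 0.073 and 0.019 with all pairs and up to 0.18 and 0.087 without another pair. No other member changed sign under these alternatives. Only 4 independent differences stand behind each gene, and which library of a pair departs from its usual level cannot be read from centred values.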
